A study of Mus musculus with 7 samples.

Results

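The respiratory chain genes described here are the protein coding genes whose names start with mt-, Nduf, Sdh, Uqcr, Cox4, Cox5, Cox6, Cox7, Cox8 or Atp5, chosen by name and not by any measured value. They numbered 109 of the 25322 genes listed, 13 encoded by the mitochondrial genome and 96 by the nucleus. By complex, the nuclear genes were 38 subunits and 8 assembly factors of complex I, 4 subunits and 4 assembly factors of complex II, 8 subunits of complex III, 17 of complex IV and 17 of complex V. The mitochondrial genes were 7 subunits of complex I, 1 of complex III, 3 of complex IV and 2 of complex V. Another 13 listed genes carry such names but are not protein coding, namely 11 pseudogenes and 2 mitochondrial ribosomal RNAs, and are not members. Cox5b-ps, named as a pseudogene of Cox5b but listed as protein coding, is counted among the 17 nuclear subunits of complex IV.

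Complexes I to IV, in the inner mitochondrial membrane, pass electrons from NADH and succinate to oxygen, and complexes I, III and IV pump protons as they do so. Complex V, the ATP synthase, uses the resulting gradient to make ATP. Except for complex II, which is wholly nuclear encoded, each complex joins a few subunits made inside the mitochondrion to many that are imported. The mitochondrial genes are transcribed from both strands as long precursor RNAs that are cut at the transfer RNAs between them, while the nuclear genes each have a promoter, many of which bind the factors NRF1 and GABPA.

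The RNA came from skin cells of mice on day 36, sorted for the red reporter tdTomato, and was sequenced in bulk. The 4 libraries labelled Zfp750_KO are from mice floxed on both alleles of Zfp750, the mouse counterpart of ZNF750, a transcription factor of epidermal differentiation, 3 of them given as Rosa26 +/- and 1 as Rosa26 -/-. The 3 control libraries are from Rosa26 +/- mice, 2 floxed on 1 allele and 1 wild type for Zfp750. All 7 carried 1 copy of a Cre driven by Lrig1, a gene of hair follicle junctional zone stem cells, written Lrig1-CreERT2 or Lrig1-CreER, and all received 4-hydroxytamoxifen on days 4 to 7 or 5 to 8 of age, controls included. The columns of the table name a group, yet none can be matched to 1 sample title, so the libraries are called here by those short names, 1M, 2M, 3F and 6F for Zfp750_KO and 4F, 4M and 7F for control, and the Rosa26 -/- knockout and the wild-type control could not be tied to a column. Separate animals are not stated, so every p-value reflects only how these libraries vary, which may be technical.

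The libraries of both groups differed in the RNA of other cell types. Read totals recovered from the normalized values were 9.55 to 15.2 M in Zfp750_KO libraries and 9.09 to 17.1 M in control libraries. Zfp750 itself had 48.9, 45.4, 10.1 and 29.6 normalized counts in Zfp750_KO (1M, 2M, 3F, 6F), against 335, 51.2 and 61.9 in control (4F, 4M, 7F). Every Zfp750_KO library was lower than every control library. The log2 difference was -1.47 ± 0.66 (SE, n = 4 and 3, limma adjusted p = 0.891), and the two-sided exact permutation p was 0.0571, the smallest that 35 splits allow. A macrophage score, the mean log2 value of 22 macrophage and monocyte genes, was 7.13, 6.85, 10.8 and 10.5 in Zfp750_KO (1M, 2M, 3F, 6F) and 5.91, 9.90 and 10.1 in control (4F, 4M, 7F). Zfp750_KO 1M and 2M and control 4F were thus low, and the other 4 libraries were high. The Y chromosome gene Uty had 544 and 518 normalized counts in Zfp750_KO 1M and 2M and 0 in 3F and 6F. In control it had 407 in 4M and 0 in 4F and 7F. Within Zfp750_KO, sex and macrophage score therefore cannot be told apart. The 22 genes summed to 559 to 10334 per M of the library total (M, mega) in Zfp750_KO libraries and 258 to 6014 in controls, with none at 0. For the labelled skin stem cell origin, 14 keratinocyte and sebocyte genes summed to 482 to 2979 per M in Zfp750_KO libraries and 613 to 3061 in controls. The sum of 15 fibroblast genes was 18601 to 123069 per M in Zfp750_KO libraries and 89823 to 179023 in controls, far above the epithelial genes in every library. In such bulk samples fewer cells of a type and less RNA per cell cannot be told apart.

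The mitochondrial genome holds its genes so tightly that some overlap, which bears on how reads can be assigned. The positions of all 13 mitochondrial members in the table were the same as in the GENCODE M21 annotation of GRCm38. Stretches are shared by neighbouring genes. The longest is at chrM:7927-7969, where 43 bases belong to both mt-Atp8 and mt-Atp6 on the same strand. At chrM:13552-13565, 14 bases belong to mt-Nd5 on the plus strand and to mt-Nd6 on the minus strand, the mitochondrial member read from the other strand. Smaller overlaps are 7 bases between mt-Nd4l and mt-Nd4 and 1 base between mt-Atp6 and mt-Co3. The stretches below are shown because these overlaps limit the reading of mt-Atp8 and mt-Nd6. Each is plus strand sequence from the GENCODE transcripts, with 30 bases before the overlap in lower case and the overlap in capitals.
mt-Atp8 and mt-Atp6: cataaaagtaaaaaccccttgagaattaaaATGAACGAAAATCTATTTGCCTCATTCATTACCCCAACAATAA
mt-Nd5 and mt-Nd6: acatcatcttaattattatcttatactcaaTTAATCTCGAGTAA
Whether the counting used strand is not given in the sources used here, so reads of mt-Nd6 and of RNA read from the opposite strand over it cannot be told apart.

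Nuclear copies of mitochondrial DNA limit the values further. The table lists 8 unprocessed pseudogenes that copy 7 mitochondrial members at 97% identity or more, 7 of them on chromosome 1 and Gm13340 on chromosome 2. There were 5 copies with no mismatch to the gene over the aligned length. The copy of mt-Nd3, Gm28438, differed from it by 1 base, T3C, counted from 1 at the first base of mt-Nd3 with the gene's base first. The first 23 bases of each are shown with that base in capitals, as an example of how little separates a gene from its copy.
mt-Nd3: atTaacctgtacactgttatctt
Gm28438: atCaacctgtacactgttatctt
Several copies had higher values than the genes themselves. Gm28437 had 1.60 to 1.97 times the value of mt-Co3 over the 7 libraries, Gm10925 had 1.87 to 2.54 times that of mt-Atp6, and Gm28438 had 1.73 to 3.63 times that of mt-Nd3. Gm28661 had 0.985 to 1.78 times the value of mt-Co2 and Gm10222 had 0.484 to 3.02 times that of mt-Nd4l. The values of these 5 members are therefore uncertain in level.

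**Figure D1:**
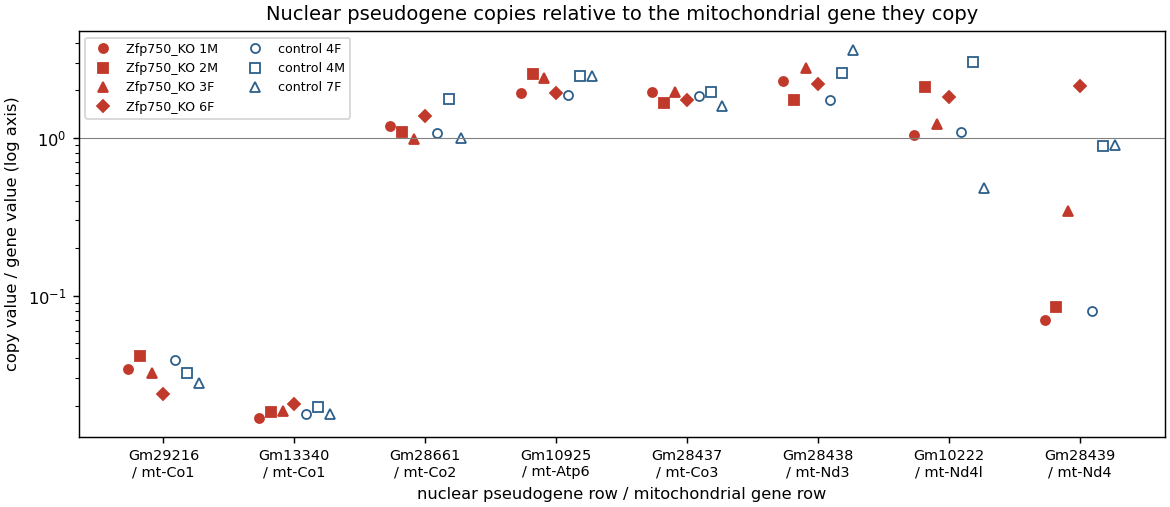
Value of each nuclear pseudogene row divided by that of the mitochondrial gene it copies, on a log axis, with 1 point per library (filled, Zfp750_KO; open, control). Ratios for mt-Co3 and mt-Atp6 lie within a narrow band above 1, while Gm28439 over mt-Nd4 spans 0.0695 in Zfp750_KO 1M to 2.14 in Zfp750_KO 6F.

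Among these 8 copies, that of mt-Nd4 had the widest range of ratios. Gm28439, which copies bases 1 to 876 of mt-Nd4 without a mismatch, had 114, 198, 691 and 3919 normalized counts in Zfp750_KO (1M, 2M, 3F, 6F), against 165, 1422 and 1150 in control (4F, 4M, 7F). The mt-Nd4 gene, a core proton-pumping subunit of complex I, had 1643, 2329, 2004 and 1833 in the Zfp750_KO libraries and 2058, 1609 and 1280 in the controls. The copy was lowest in the 3 libraries of low macrophage score and the gene was not, with a highest over lowest value of 1.82 for mt-Nd4. With the copy added, mt-Nd4 had 1757, 2527, 2695 and 5752 in Zfp750_KO (1M, 2M, 3F, 6F) and 2223, 3031 and 2430 in control (4F, 4M, 7F), with Zfp750_KO 6F highest.

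Mitochondrial RNA was a small part of every library. The 13 mitochondrial members summed to 0.810%, 1.00%, 1.06% and 0.684% of the library total in Zfp750_KO (1M, 2M, 3F, 6F), against 0.892%, 0.461% and 0.521% in control (4F, 4M, 7F). Zfp750_KO libraries averaged 0.889% ± 0.173 and control libraries 0.625% ± 0.233 (SD, n = 4 and 3), and the groups overlapped through control 4F, which was higher than Zfp750_KO 1M and 6F. The 96 nuclear members summed to 0.235%, 0.199%, 0.201% and 0.234% in Zfp750_KO (1M, 2M, 3F, 6F) and 0.231%, 0.169% and 0.177% in control (4F, 4M, 7F). Here too control 4F lay among the Zfp750_KO libraries and the other controls lay below them.

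**Figure D2:**
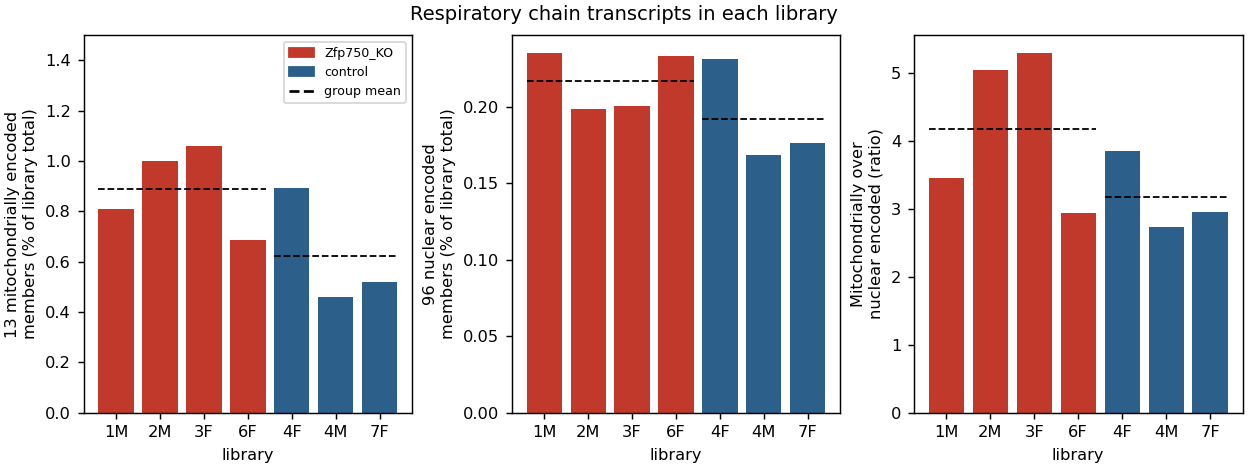
Share of the library total taken by the 13 mitochondrially encoded members (left) and the 96 nuclear encoded members (middle), and the ratio of the sums (right), per library, with dashed lines at the group means. Zfp750_KO averaged 0.889% and control 0.625% on the left, and 0.217% and 0.192% in the middle, with overlapping groups in each panel.

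The ratio of mitochondrially to nuclear encoded members was 3.45, 5.04, 5.29 and 2.93 in Zfp750_KO (1M, 2M, 3F, 6F), against 3.85, 2.73 and 2.95 in control (4F, 4M, 7F). Zfp750_KO 2M and 3F were highest and control 4M lowest, and Zfp750_KO 1M and 6F lay within the control range. The difference between the groups in mean log2 value was 0.55 for the mitochondrial share, 0.18 for the nuclear share and 0.37 for the ratio. These sums are described without a test. With the pseudogene copies added, the mitochondrial share was 1.04%, 1.28%, 1.28% and 0.817% in Zfp750_KO (1M, 2M, 3F, 6F) and 1.15%, 0.573% and 0.631% in control (4F, 4M, 7F), in which control 4F was again within the Zfp750_KO range.

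A single gene made most of the mitochondrial sum. mt-Co1, the catalytic core of cytochrome c oxidase, had 77007, 90951, 85069 and 43190 normalized counts in Zfp750_KO (1M, 2M, 3F, 6F) and 80274, 37039 and 39759 in control (4F, 4M, 7F). It was 60.4% to 74.4% of the mitochondrial sum in Zfp750_KO libraries and 67.3% to 68.1% in controls. Per kilobase of exon, the mean level over the 7 libraries was 3459 per M for mt-Co1, 760 for mt-Co3, 561 for mt-Cytb and 309 for mt-Co2, the 4 highest of all members on that scale. The lowest mitochondrial level per kilobase was that of mt-Nd4l, at 20.6 per M, with a copy row at 0.484 to 3.02 times its value. The median per kilobase was 183 per M over the 13 mitochondrial members and 5.64 over the 96 nuclear ones, in which the highest was Atp5a1, the ATP synthase alpha subunit, at 87.5.

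The mitochondrial members did not move together over the libraries. mt-Co3, a core subunit of complex IV, had 10147, 13399, 6582 and 2410 normalized counts in Zfp750_KO (1M, 2M, 3F, 6F), against 11934, 3309 and 4199 in control (4F, 4M, 7F). mt-Cytb, the cytochrome b of complex III, had 10087, 12375, 8265 and 3744 in the Zfp750_KO libraries and 12334, 4309 and 4279 in the controls. Both were highest in Zfp750_KO 1M and 2M and control 4F and lowest in Zfp750_KO 6F. mt-Co2, mt-Atp6 and mt-Nd3 also had their 3 highest values in Zfp750_KO 1M and 2M and control 4F.

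mt-Nd5 and mt-Nd6 ran the other way. mt-Nd5, a proton-pumping subunit of complex I, had 1508, 2209, 4244 and 12361 normalized counts in Zfp750_KO (1M, 2M, 3F, 6F), against 2150, 3981 and 4355 in control (4F, 4M, 7F). mt-Nd6 had 446, 601, 908 and 3342 in the Zfp750_KO libraries and 600, 1138 and 935 in the controls. Both were lowest in the 3 libraries of low macrophage score and far highest in Zfp750_KO 6F. Their ratio to each other was nearly fixed, with 0.214 to 0.296 of mt-Nd6 per mt-Nd5 in Zfp750_KO libraries and 0.215 to 0.286 in controls. Neither has a listed nuclear copy at the identity used here.

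Set against mt-Cytb, which lies beyond mt-Nd6 along the genome, mt-Nd5 was at 0.149, 0.179, 0.513 and 3.30 times its value in Zfp750_KO (1M, 2M, 3F, 6F) and 0.174, 0.924 and 1.02 times in control (4F, 4M, 7F). mt-Nd5 and mt-Nd6 together were 1.80%, 2.13%, 4.51% and 22.0% of the mitochondrial sum in Zfp750_KO (1M, 2M, 3F, 6F), against 2.33%, 9.30% and 9.06% in control (4F, 4M, 7F). The libraries with the lowest macrophage scores had the lowest shares in both groups, but the order did not follow the score throughout. Zfp750_KO 3F, with the highest score of all, had a smaller share than Zfp750_KO 6F and the controls 4M and 7F. The part of macrophage RNA in these differences was not tested.

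**Figure D3:**
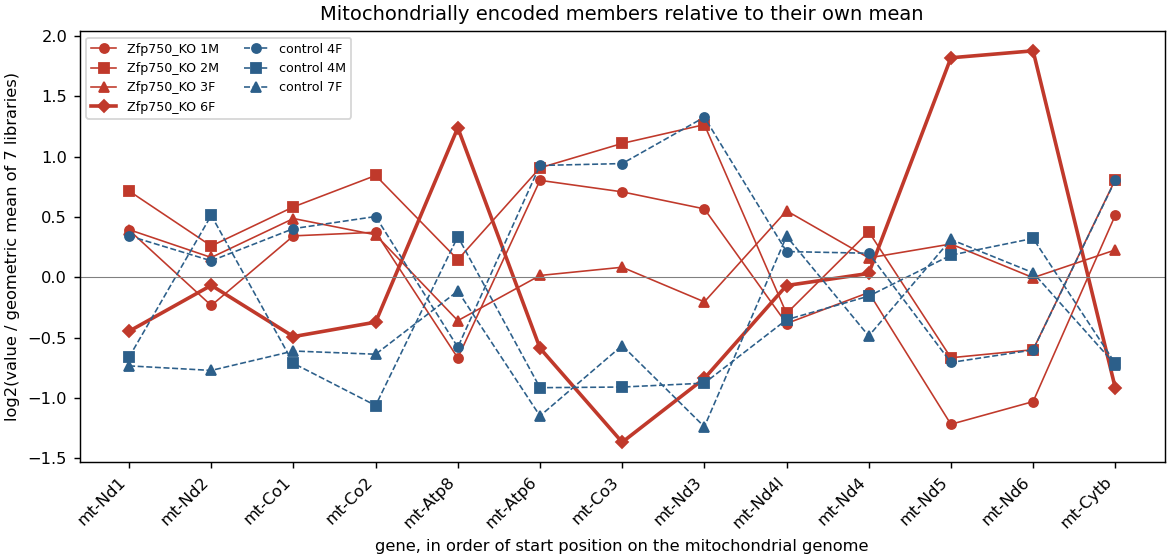
Log2 of each mitochondrial member's value over its geometric mean in the 7 libraries, in order of start position on the mitochondrial genome (solid red, Zfp750_KO; dashed blue, control; 1 line per library). Zfp750_KO 6F is the highest library at mt-Atp8, mt-Nd5 and mt-Nd6 and the lowest at mt-Co3 and mt-Cytb.

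mt-Nd1, another complex I core subunit, had 2597, 3250, 2604 and 1453 normalized counts in Zfp750_KO (1M, 2M, 3F, 6F) and 2512, 1252 and 1191 in control (4F, 4M, 7F). Zfp750_KO 3F, intermediate in mt-Co3, was the second highest library for mt-Nd1 and mt-Co1. mt-Nd2 had 358 to 503 in Zfp750_KO libraries and 246 to 600 in controls, with both extremes among the controls. mt-Atp8, the small accessory subunit of the ATP synthase, had 58.2, 102, 72.1 and 218 in Zfp750_KO (1M, 2M, 3F, 6F) and 61.9, 117 and 85.5 in control (4F, 4M, 7F), and was also highest in Zfp750_KO 6F. The highest over lowest library was 1.82 to 8.20 across the 13 mitochondrial members, with a median of 3.75. The median was 2.05 across tested nuclear members with no value of 0.

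No mitochondrial member differed between the groups past the test. In the limma fit across 18141 genes with the group as the only term, 0 of 13 mitochondrial and 0 of 88 tested nuclear members passed an adjusted p of 0.05, where 0% of all genes did. At an unadjusted p under 0.05 there were 0 mitochondrial members and 1 nuclear member, against 5.83% of all genes. That member was higher, against 2.18% of all genes higher, and 0 members were lower, against 3.65%. The largest mitochondrial log2 differences were 0.69 ± 0.43 for mt-Co2, 0.65 ± 0.57 for mt-Atp6 and 0.61 ± 0.37 for mt-Nd1 (SE, n = 4 and 3, limma adjusted p = 1.0 for each). The smallest was -0.10 ± 0.29 for mt-Nd4l. Differences were above 0 for 12 of 13 mitochondrial members and 73 of 88 nuclear members, where 53.3% of all genes were above 0. The median log2 difference was 0.31 for the mitochondrial and 0.17 for the nuclear members, against 0.025 over all genes tested.

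With the macrophage score as a covariate, again 0 of 101 tested members passed, where 3.73% of all genes did, 1.45% higher and 2.28% lower. Differences were above 0 for 12 of 13 mitochondrial and 72 of 88 nuclear members, where 52.8% of all genes were. The median log2 difference was then 0.40 for the mitochondrial members, 0.20 for the nuclear members and 0.02 for all genes. The closest to the threshold were Ndufv3, a complex I subunit of the NADH-binding arm, at 0.72 ± 0.20 (SE, n = 4 and 3, limma adjusted p = 0.0838), and mt-Atp6, the proton channel subunit of the ATP synthase, at 0.73 ± 0.21 (limma adjusted p = 0.0952). At an unadjusted p under 0.05 this fit had 3 mitochondrial and 10 nuclear members higher and 1 nuclear member lower, against 17.4% of all genes in either direction, 8.39% higher and 9% lower. Zfp750 passed in this fit, at -1.39 (limma adjusted p = 0.0479).

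**Figure D4:**
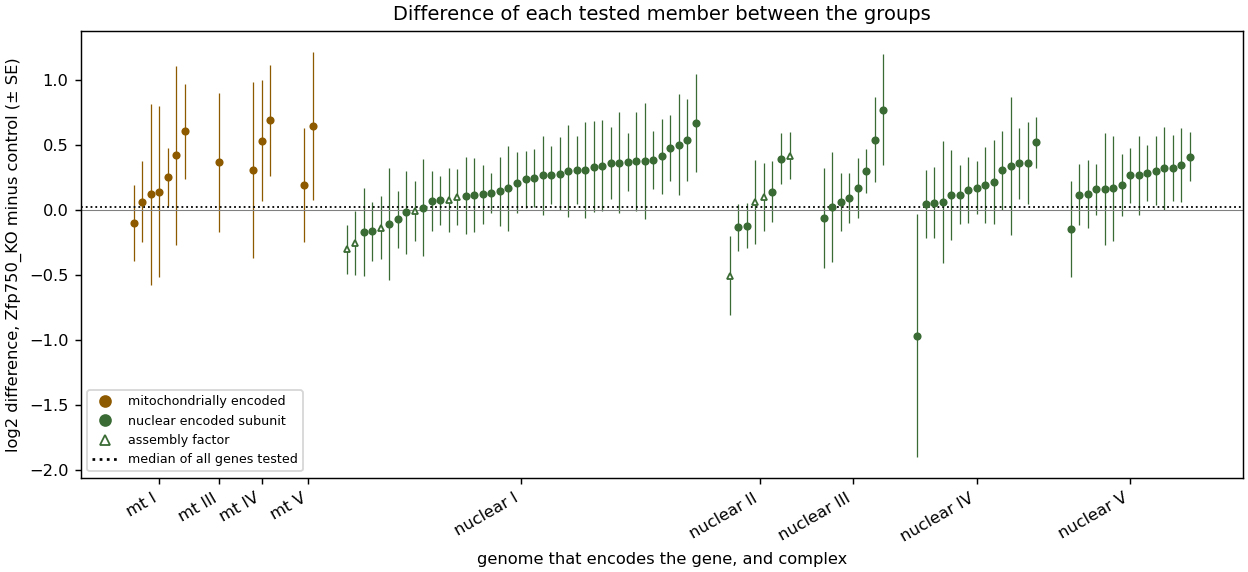
Log2 difference, Zfp750_KO minus control, with its SE (bars) for each of the 101 tested members in the fit with the group alone, sorted within the genome that encodes them and the complex; the dotted line is the median of all genes tested (0.025). Most points lie above the line, no member passed the adjusted threshold, and Ndufa4l2 (complex IV) is the lowest at -0.96 ± 0.94.

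The groups did not overlap for 5 nuclear members and no mitochondrial one. Among all genes tested, 3.19% had every Zfp750_KO library above every control library and 3.91% the reverse, 7.1% in all. The 4 members higher in Zfp750_KO were Cox6b1, Uqcrc1, Sdhaf2 and Atp5l, and the 1 lower member was Ndufaf7, a share of the 88 tested nuclear members close to the background. A non-member, the mitochondrial ribosomal RNA mt-Rnr1, had 503, 520, 395 and 313 normalized counts in Zfp750_KO (1M, 2M, 3F, 6F) and 267, 171 and 130 in control (4F, 4M, 7F), without overlap. The other ribosomal RNA, mt-Rnr2, overlapped, at 304 to 916 in Zfp750_KO libraries and 180 to 463 in controls.

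Complex I oxidises NADH and is the largest of the complexes. Of its 38 nuclear subunits 36 were tested, with a median log2 difference of 0.27 and 31 above 0. Ndufs1, a core iron-sulfur subunit that carries electrons towards ubiquinone, had 526, 481, 549 and 534 normalized counts in Zfp750_KO (1M, 2M, 3F, 6F) and 521, 447 and 461 in control (4F, 4M, 7F), the narrowest spread of any nuclear member, with a highest over lowest value of 1.23. Its groups overlapped.

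Ndufv3 had 182, 177, 98.1 and 123 normalized counts in Zfp750_KO (1M, 2M, 3F, 6F), against 153, 55.1 and 67.5 in control (4F, 4M, 7F), and overlapped through control 4F. Its log2 difference with the group alone was 0.67 ± 0.38 (limma adjusted p = 1.0). Ndufb7, an accessory subunit, had 27.0, 39.6, 64.2 and 65.4 in the Zfp750_KO libraries and 29.4, 34.1 and 22.5 in the controls. It was highest in Zfp750_KO 3F and 6F, unlike Ndufv3 and Ndufa1, an accessory subunit with 92.5, 64.7, 34.9 and 36.5 in Zfp750_KO (1M, 2M, 3F, 6F) and 56.5, 23.6 and 28.1 in control (4F, 4M, 7F). Ndufb3, also accessory, had 21.4 to 42.0 in Zfp750_KO libraries and 16.9 to 24.0 in controls.

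Negative differences among complex I genes were small. Ndufs4, an accessory subunit lost in some forms of human Leigh syndrome, had 121, 129, 125 and 53.7 normalized counts in Zfp750_KO (1M, 2M, 3F, 6F), against 152, 95.8 and 107 in control (4F, 4M, 7F). Only Zfp750_KO 6F lay below the controls. Ndufb2 had a difference of -0.16 ± 0.23 and the groups overlapped.

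The assembly factors of complex I, which build the complex without staying in it, had a median log2 difference of -0.07 over the 6 tested of 8, with 2 above 0. Ndufaf7, a mitochondrial methyltransferase, had 117, 110, 106 and 122 normalized counts in Zfp750_KO (1M, 2M, 3F, 6F), against 135, 155 and 138 in control (4F, 4M, 7F), without overlap. Its log2 difference was -0.30 ± 0.19 (SE, n = 4 and 3, limma adjusted p = 1.0). Ndufaf8 had 9.02 to 22.9 in Zfp750_KO libraries and 19.1 to 23.6 in controls, with overlap through Zfp750_KO 1M.

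Complex II links the citric acid cycle to the chain, and 2 of its 4 subunits and 3 of its 4 assembly factors had a difference above 0. Sdha, its flavoprotein, had 653, 603, 689 and 837 normalized counts in Zfp750_KO (1M, 2M, 3F, 6F) and 731, 789 and 731 in control (4F, 4M, 7F). Sdhd, a membrane anchor, had 520, 351, 431 and 497 in the Zfp750_KO libraries and 310, 365 and 332 in the controls, overlapping only through Zfp750_KO 2M and control 4M. Sdhaf2, which helps attach the flavin to Sdha, had 387, 330, 404 and 313 in Zfp750_KO (1M, 2M, 3F, 6F) against 244, 293 and 255 in control (4F, 4M, 7F). Its groups did not overlap, with a log2 difference of 0.42 ± 0.18 (SE, n = 4 and 3, limma adjusted p = 0.859). Sdhc, the other anchor, had 402 to 634 in Zfp750_KO libraries and 369 to 572 in controls. Sdhaf4, a low gene at 0 to 13.5 in Zfp750_KO libraries and 9.19 to 18.0 in controls, was listed at 0 in Zfp750_KO 3F.

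Complex III passes electrons from ubiquinol to cytochrome c, and 7 of its 8 nuclear members had a difference above 0. Uqcrc1, a core protein, had 1126, 828, 849 and 920 normalized counts in Zfp750_KO (1M, 2M, 3F, 6F), against 742, 765 and 732 in control (4F, 4M, 7F). Its groups did not overlap, at 0.30 ± 0.17 (SE, n = 4 and 3, limma adjusted p = 1.0). Uqcrc2, the other core protein, had 885, 681, 416 and 310 in Zfp750_KO (1M, 2M, 3F, 6F) and 835, 383 and 439 in control (4F, 4M, 7F), high in the same 3 libraries as mt-Cytb. The order of the libraries thus differed between the core proteins of this complex.

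Uqcr10, a small subunit, had the largest positive difference of any tested member, 0.78 ± 0.43 (SE, n = 4 and 3, limma adjusted p = 1.0). It had 133, 148, 83.4 and 95.7 normalized counts in Zfp750_KO (1M, 2M, 3F, 6F), against 128, 30.2 and 52.9 in control (4F, 4M, 7F). Uqcrb, which lies near the ubiquinone site, had 60.3 to 87.6 in Zfp750_KO libraries and 30.2 to 80.6 in controls. Both overlapped through control 4F. Uqcrb has 3 near-identical copies in the annotation, so its level is uncertain.

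Complex IV reduces oxygen to water, and 14 of its 15 tested nuclear members had a difference above 0. The 14 include both Cox5b and Cox5b-ps, whose whole transcript has a near-identical match in Cox5b. Cox6b1, a subunit on the outer face that contacts cytochrome c, had 539, 418, 381 and 472 normalized counts in Zfp750_KO (1M, 2M, 3F, 6F), against 358, 265 and 309 in control (4F, 4M, 7F). All Zfp750_KO libraries were above all controls. The log2 difference was 0.52 ± 0.20 (SE, n = 4 and 3, limma adjusted p = 0.756), and this was the single member with an unadjusted p under 0.05 in the fit with the group alone. Cox7a2l, which joins complexes III and IV into supercomplexes, had 600 to 1248 in Zfp750_KO libraries and 727 to 1084 in controls. Cox8a, a small ubiquitous subunit, had 242 to 522 in Zfp750_KO libraries and 252 to 437 in controls.

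Several complex IV subunits exist in a common and a tissue-restricted form. Ndufa4l2, a paralogue of the complex IV subunit Ndufa4 that is known as a target of hypoxia-inducible factor and as a pericyte-enriched gene, had 672, 1051, 89.0 and 247 normalized counts in Zfp750_KO (1M, 2M, 3F, 6F), against 2138, 558 and 298 in control (4F, 4M, 7F). It spanned 24.0-fold over the libraries, the widest among members with no value of 0, and the groups overlapped. Its log2 difference was -0.96 ± 0.94 (SE, n = 4 and 3, limma adjusted p = 1.0), and -0.83 ± 0.30 with the macrophage score (adjusted p = 0.179). The common Ndufa4 had 48.9 to 96.7 in Zfp750_KO libraries and 37.1 to 94.5 in controls. Per kilobase of exon, Ndufa4l2 averaged 51.8 per M and Ndufa4 4.03, so the restricted form was the higher on this scale.

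The 10 pericyte and vascular smooth muscle genes summed to 1657, 1810, 443 and 663 per M in Zfp750_KO (1M, 2M, 3F, 6F) and 924, 533 and 545 in control (4F, 4M, 7F). The library highest in Ndufa4l2, control 4F, was not highest in that sum. Of its 9 tested genes 6 had a log2 difference above 0 and 3 below, from -0.84 to 2.04, and none passed with the group alone. With the macrophage score 3 passed, all higher in Zfp750_KO. The defining pericyte markers did not share a direction. Rgs5 had 502 to 1349 normalized counts in Zfp750_KO libraries and 263 to 381 in controls. Abcc9 had 118 to 192 in Zfp750_KO libraries and 132 to 416 in controls, and Kcnj8 19.3 to 40.6 in Zfp750_KO libraries and 35.6 to 94.5 in controls. Higd1b, at 3.12 to 4.83 in Zfp750_KO libraries and 0 in every control, was under the filter on low values. It was not tested, and no statement on its difference is made. The part of pericytes in the Ndufa4l2 values was not tested.

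The other restricted forms were low. Cox4i2 had 14.6, 20.3, 1.13 and 4.82 normalized counts in Zfp750_KO (1M, 2M, 3F, 6F) and 5.42, 3.94 and 1.12 in control (4F, 4M, 7F), against 400 to 657 in Zfp750_KO libraries and 408 to 591 in controls for Cox4i1. Cox7a1, the heart and muscle form, had 0 to 7.73 in Zfp750_KO libraries and 3.10 to 4.50 in controls, while the common Cox7a2 had 79.9 to 250 in Zfp750_KO libraries and 109 to 264 in controls. Cox6b2, best known from testis, had 19.8 to 43.4 in Zfp750_KO libraries and 23.2 to 30.4 in controls, lowest in the 3 libraries of low macrophage score. Cox6a1, the common form of subunit VIa, had 156 to 261 in Zfp750_KO libraries and 156 to 242 in controls. No listed gene carried the name Cox6a2 or Cox8b.

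Skeletal muscle genes, 20 in all, summed to 30.4, 24.9, 208 and 124 per M in Zfp750_KO (1M, 2M, 3F, 6F) and 51.1, 1090 and 810 in control (4F, 4M, 7F). Of the 15 tested muscle genes 0 had a log2 difference above 0. None passed with the group alone, and 12 passed with the macrophage score, all lower in Zfp750_KO. Controls 4M and 7F, highest in that sum, were the lowest in the mitochondrial share. The part of muscle RNA in the values of the members was not tested. Of 10 adipocyte genes 9 were listed, summing to 20.7 to 64.7 per M in Zfp750_KO libraries and 25.9 to 43.1 in controls, and the brown fat gene Ucp1 was at 0 to 16.9 normalized counts in Zfp750_KO libraries and 0 to 15.8 in controls.

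**Figure D5:**
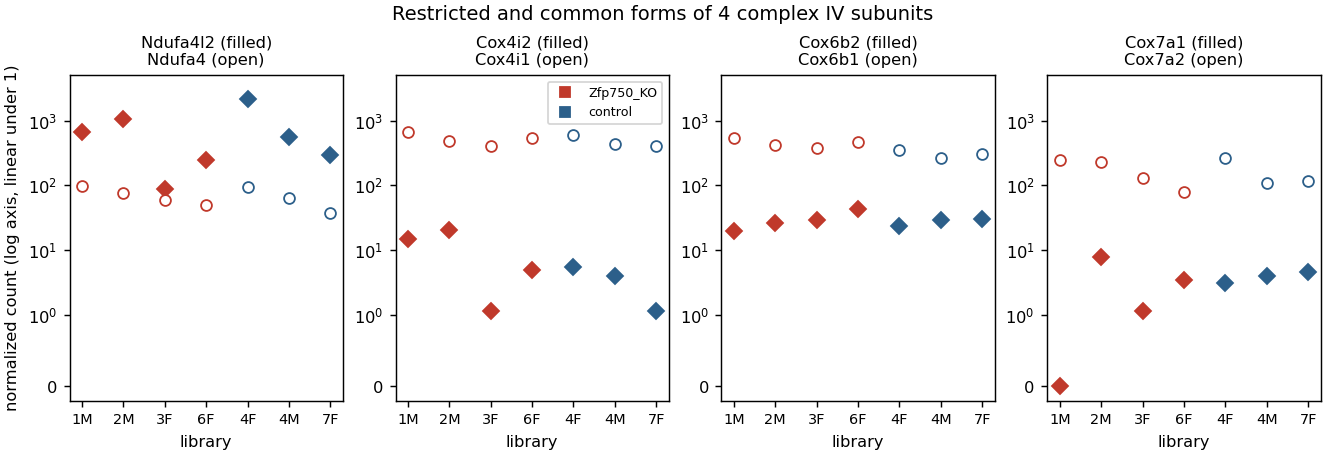
Normalized counts of the tissue-restricted (filled) and common (open) forms of 4 complex IV subunits in each library, on an axis that is logarithmic above 1 and linear below (red, Zfp750_KO; blue, control). Ndufa4l2 varies from 89.0 to 1051 in Zfp750_KO libraries and 298 to 2138 in controls, while Cox4i2, Cox6b2 and Cox7a1 stay at 43.4 or less.

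Complex V had 14 of 15 tested nuclear members above 0, with a median log2 difference of 0.27. Atp5b, the catalytic beta subunit, had 4704, 3584, 3208 and 3300 normalized counts in Zfp750_KO (1M, 2M, 3F, 6F) and 4803, 2778 and 2810 in control (4F, 4M, 7F). Atp5a1 had 2849 to 4154 in Zfp750_KO libraries and 2632 to 4107 in controls, with control 4F again among the highest. Atp5l, subunit g of the membrane part, had 305, 316, 403 and 405 in Zfp750_KO (1M, 2M, 3F, 6F), against 280, 237 and 274 in control (4F, 4M, 7F), without overlap and at 0.41 ± 0.19 (SE, n = 4 and 3, limma adjusted p = 0.901). Atp5l has 4 near-identical copies in the annotation, so its level is uncertain.

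The proton-carrying c ring is encoded by 3 genes with the same mature protein. Atp5g3 had 349 to 465 normalized counts in Zfp750_KO libraries and 306 to 429 in controls, and Atp5g1 had 73.3 to 168 in Zfp750_KO libraries and 96.2 to 170 in controls. Atp5g2 was at 0 to 3.96 in Zfp750_KO libraries and 1.14 to 2.63 in controls. A pseudogene identical to 16.9% of the Atp5g2 transcript, Gm10175, had 490 to 900 in Zfp750_KO libraries and 404 to 728 in controls, so the low level of Atp5g2 is uncertain. Differences were 0.16 ± 0.20 for Atp5g3 and -0.14 ± 0.37 for Atp5g1 (SE, n = 4 and 3, limma adjusted p = 1.0 for both). The 8 members that did not reach 1 per M in 3 libraries were Ndufa5, Ndufaf2, Ndufaf6, Ndufb11b, Cox4i2, Cox7a1, Atp5g2 and Atp5k, at 0 to 20.3 normalized counts, and no statement on their difference is made.

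The order of the libraries was shared by many members. The 3 highest libraries were Zfp750_KO 1M and 2M and control 4F, those of lowest macrophage score, for 5 of 13 mitochondrial members (38.5%) and 35 of 88 nuclear members (39.8%), where 22.9% of all genes tested had that order. The 3 lowest libraries were these same 3 for mt-Nd5 and mt-Nd6 among mitochondrial members and for Cox6b2, Ndufa13 and Ndufaf3 among nuclear members (3.41%), where 23.2% of all genes had it. Ndufa13, a complex I subunit also known as Grim19, had 16.4, 14.0, 16.6 and 49.9 normalized counts in Zfp750_KO (1M, 2M, 3F, 6F) and 14.5, 19.7 and 32.0 in control (4F, 4M, 7F), highest in Zfp750_KO 6F like mt-Nd5.

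Promoters from RefSeq, on GRCm38.p6 and spanning 250 bases before to 50 after the start, were matched for 79 of the 96 nuclear members. The NRF1 core GCGCATG was in a promoter of 15 of the 79 genes (19.0%), against 4.41% of the 27025 genes in the RefSeq promoter set. The GABPA core CCGGAAG was in 27.8% of member genes and 9.93% of all, and GCGTG, the core of the hypoxia response element with G first, in 57.0% and 35.2%. Its other form, ACGTG, was in 24.1% of member genes and 21.8% of all. Both strands were searched, and a match is a description of letters, not of a bound site. The comparison genes were not matched to the members in base composition, expression or gene type. The part of base composition in these shares was not tested.

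The promoters of Uqcrc1, whose groups did not overlap, at chr9:108936398-108936697 on the plus strand, and Cox6a1, whose groups did, at chr5:115348909-115349208 on the minus strand, are shown in the direction of the gene as examples of members with this NRF1 motif on both strands, where the overlapping matches make a palindrome that is in capitals.
Uqcrc1: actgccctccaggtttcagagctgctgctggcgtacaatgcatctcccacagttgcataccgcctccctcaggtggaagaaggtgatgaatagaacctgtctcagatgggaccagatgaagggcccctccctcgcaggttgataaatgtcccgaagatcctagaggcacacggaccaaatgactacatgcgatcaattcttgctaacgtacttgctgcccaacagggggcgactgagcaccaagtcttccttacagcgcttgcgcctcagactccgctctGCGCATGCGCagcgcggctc
Cox6a1: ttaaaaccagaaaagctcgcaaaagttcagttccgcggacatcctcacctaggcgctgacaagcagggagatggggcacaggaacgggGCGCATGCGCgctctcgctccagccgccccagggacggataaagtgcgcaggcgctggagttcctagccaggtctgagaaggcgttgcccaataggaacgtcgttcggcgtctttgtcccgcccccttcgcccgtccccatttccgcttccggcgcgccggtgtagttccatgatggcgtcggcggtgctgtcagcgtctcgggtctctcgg
The palindrome lies after the annotated start in Uqcrc1 and before it in Cox6a1.

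Genes around the chain were listed for comparison. Of 42 cytochrome c and assembly genes outside the naming rule, 39 were tested, 18 had a log2 difference above 0 and none passed in either fit. Cycs, cytochrome c itself, had 251 to 421 normalized counts in Zfp750_KO libraries and 258 to 374 in controls. Of 10 tested regulators of respiratory genes such as Ppargc1a and Nrf1, 7 were above 0 and none passed. Of 23 citric acid cycle and pyruvate dehydrogenase genes 14 were above 0, of 78 mitochondrial ribosomal protein genes 55, and of 84 tested cytosolic ribosomal protein genes 74, and none of these passed in either fit.

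Of 29 tested genes of mitochondrial transcription, replication and RNA handling, 14 had a difference above 0 and 1 passed with the macrophage score. That gene, Polg2, the accessory subunit of the mitochondrial DNA polymerase, had 300, 366, 1114 and 1063 normalized counts in Zfp750_KO (1M, 2M, 3F, 6F), against 636, 1452 and 1421 in control (4F, 4M, 7F). It fell by 0.93 ± 0.18 on the log2 scale in that fit (SE, n = 4 and 3, limma adjusted p = 0.0231), and its difference with the group alone was -0.85 ± 0.56 (adjusted p = 1.0), with overlapping groups.

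Glycolysis, which makes ATP without the chain, had 17 of 20 genes above 0, with a median log2 difference of 0.53, none passing with the group alone and 4 passing with the macrophage score, all higher. Slc2a1, the glucose transporter Glut1, had 1072, 911, 1451 and 1280 normalized counts in Zfp750_KO (1M, 2M, 3F, 6F), against 561, 616 and 660 in control (4F, 4M, 7F), without overlap, and rose by 0.89 ± 0.14 in that fit (SE, n = 4 and 3, limma adjusted p = 0.0107). Slc16a3, a lactate exporter, rose by 0.94 ± 0.21 (adjusted p = 0.0469). Groups did not overlap for 10 of the 20 glycolysis genes, all higher in Zfp750_KO, where 3.19% of all genes were, against 4 higher among the 101 tested respiratory chain members, and the difference between the lists was not tested.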

How the data were processed

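Per the file headers, the deposited signal values are counts that the authors normalized; each column moves in steps, as reads divided by 1 factor per library would. TopHat2 2.1.0 and Partek 9.0.20.0202 stand in the list of tools per the submitters' processing notes. The sources used here give neither build nor strand setting. Of values under 200 reads, 77.9% to 79.5% were whole multiples of 1 read within 0.02 reads, so whole reads were not recovered and no count test was run. Another 829 values written as nearly 0 were set to 0. The fewest reads of a listed gene over the libraries were 10.

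Genes with at least 1 per M in at least 3 libraries, 18141, were tested as log2(value + 11.9), where 11.9 equals 1 per M at the median column total; this makes differences of low genes look smaller than they are. The test was limma 3.58.1 in R 4.3.3 (lmFit, eBayes with a trend, Benjamini-Hochberg adjustment over all genes at 0.05) with the group alone (5 residual degrees of freedom) or with the macrophage score (4). The fit was tested on simulated data. These lacked the differences in cell mixture found within the groups, so they do not show how the fit performs here. Lengths are merged exons of GENCODE M21. Near-identical copies were found among its transcripts with blastn 2.17.0, at 97% identity or more over at least 50% of the transcript, and Gm29216 was kept over a shorter part of mt-Co1. Nuclear coordinates of the table differ from M21 and are not given.

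The members and lists were chosen with earlier results of these data known. Named were all mitochondrial members, the 6 nuclear members largest in each direction, the 6 of smallest p, the paralogue pairs, the 2 highest per complex (1 result is not reported here) and, in each outside list, the 2 largest past the threshold or else of highest mean; others, such as Ndufa13, Cycs and the pericyte markers, were chosen after their values were seen. Alternatives were other pseudocounts, filters, scalings, array weights, covariates, thresholds, leaving out each library and, chosen after seeing the data, adding pseudogene copies.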

Additional observations from a re-analysis of the deposited data

Results flagged for a closer look

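In groups of 4 libraries, a library was singled out where its gap to the nearest other, divided by the range, passed Dixon's critical value for 95%. Of 57 values tested in this way 5 were singled out, all in Zfp750_KO 6F. For normally distributed values chance alone gives about 1 in 20. The gaps were taken on unlogged counts, ratios and percentages, where a single high library stands out more than on a log scale. Logs were not tested in this way. mt-Nd6 had 3342 normalized counts there, against 446 to 908 in the other Zfp750_KO libraries, with a gap ratio of 0.840. mt-Nd5 over mt-Cytb was 3.30 in Zfp750_KO 6F and 0.149 to 0.513 in the others, and mt-Nd6 over mt-Cytb was 0.892, with gap ratios of 0.885 and 0.923. mt-Nd5 and mt-Nd6 were 22.0% of the mitochondrial sum there and 1.80% to 4.51% in the others. These 4 values share the same genes and library. Ndufs4 was low in Zfp750_KO 6F, at 53.7 normalized counts, against 121 to 129 in the others, with a gap ratio of 0.883.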

How the results depend on the processing

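With the group alone, the count of members past the threshold was 0 in every alternative run except array weights, where 31 members passed, all higher in Zfp750_KO, beside 1883 higher and 1912 lower of all genes. Those weights ran from 0.265 in Zfp750_KO 3F to 3.99 in control 7F, and the cause was not tested. With the macrophage score, 3 members passed with array weights (Ndufv3, mt-Nd1 and mt-Atp6) and 2 at an adjusted p of 0.1 (Ndufv3 and mt-Atp6), all higher, beside 469 higher and 696 lower of all 18141 genes with array weights and 543 higher and 677 lower at 0.1. Leaving out 1 library gave 0 to 5 members, the 5 without control 4F (Ndufv3, Uqcr10, mt-Nd1, mt-Co2 and mt-Atp6), beside 620 higher and 1021 lower of all 17924 genes then tested. The median difference of the mitochondrial members ran from 0.18 to 0.87 when 1 library was left out, with 0.73 without Zfp750_KO 6F and 0.87 without control 4F. The same ranges were 0.11 to 0.36 for the nuclear median, 0.36 to 0.84 for the mitochondrial share, 0.10 to 0.33 for the nuclear share, 0.24 to 0.52 for the ratio and -1.91 to -0.70 for Zfp750. The sign of the difference with the group alone was checked in 46 named members under other pseudocounts, filters, scalings, left-out libraries and added copies. Of these members 30 kept it in every such run that tested them. The other 16 changed it in at least 1 (among them mt-Co3, mt-Nd2, mt-Nd3, mt-Nd5 and mt-Nd6), and 0 of the 46 were past the threshold as reported. Runs with array weights or other covariates were not part of this check. A count test was not run because whole reads were not recovered. No paired analysis was possible because the columns carry no replicate numbers of the sample titles. The 8 members under the filter on low values have no test, and the part of depth in this was not tested.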
